A study of Mus musculus with 20 samples.

Results

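The mouse embryoid body (EB) cultures described here were sampled on day 14 of differentiation, and wild type was compared with Nox4 knockout. They comprise 4 of the 20 libraries of the series, chosen by their day and genotype in the sample labels. Wild type was represented by the lines WT#1-4 and WT#20D-17, and the knockout by Nox4-/-#5-8 and Nox4-/-#5-23, with 1 library per line. The published study describes WT#1-4 and both knockout lines as clones of induced pluripotent stem cells (iPSCs) made from embryonic fibroblasts. The fibroblasts came from wild type or Nox4-/- mice and were given viral Oct4, Sox2, Klf4 and c-Myc, so both genotypes carried these factors. Cells of every line were aggregated in hanging drops without LIF and then plated on gelatin, and the protocol text of the labels lists day 10 where the titles give day 14. The labels give no strain, and WT#20D-17 is not named in the published study, which does not describe how that line was made. With 2 clones a genotype, the spread between clones rests on few values and the power of any test is low. A gene is called separated below when both wild type values lay on one side of both knockout values.

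Nox4 is an NADPH oxidase, a membrane enzyme that passes electrons to oxygen and releases hydrogen peroxide. Low levels of such reactive oxygen species act as signals in cells. An EB is an aggregate of pluripotent cells that, once LIF is withdrawn, gives rise to derivatives of endoderm, mesoderm and ectoderm. Genes of the pluripotent state normally fade over this period, while extracellular matrix, epithelial, muscle and liver-type genes come on. The question posed by the comparison is how the absence of Nox4 alters the transcriptome late in that course.

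The protein-coding genes with the widest gaps on day 14 were Cbx7, Pdpn, Repin1 and Mmp2 on the side lower in both knockout lines and Avil, Mpp4, Lypd5 and Th on the higher side. Among the gene lists, 8 of 15 epithelial genes, 8 of 19 interstitial matrix genes and 8 of 27 imprinted genes, Igf2 and H19 among them, lay at least 2-fold lower in both knockout lines. Of 8 HoxC genes, 6 lay at least 2-fold higher. These shares stand beside 3.18% of all genes lower and 3.45% higher. The test with the line as the unit called none of these genes at a false discovery rate (FDR) under 0.05. Col1a1, Col3a1, Igf2 and H19 were also far higher in WT#20D-17 than in WT#1-4.

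The promoter windows of the protein-coding genes with the widest gaps are shown first, because a promoter's count of CG dinucleotides is a property the choice of genes did not use. They are 300 bases long, come from the RefSeq annotation of GRCm38.p6 and run 5′ to 3′ on the strand of the gene, with every CG in capitals. Cbx7 and Pdpn lay lower in the knockout lines, and Avil and Mpp4 lay higher.
Cbx7 promoter, chr15:79932597-79932896, minus strand: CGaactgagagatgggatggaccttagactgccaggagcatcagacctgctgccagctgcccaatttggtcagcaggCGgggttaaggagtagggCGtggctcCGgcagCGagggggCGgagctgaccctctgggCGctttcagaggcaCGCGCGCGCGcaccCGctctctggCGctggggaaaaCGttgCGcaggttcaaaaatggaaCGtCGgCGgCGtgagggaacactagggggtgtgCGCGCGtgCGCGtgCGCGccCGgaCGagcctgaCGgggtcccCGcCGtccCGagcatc
Pdpn promoter, chr4:143299515-143299814, minus strand: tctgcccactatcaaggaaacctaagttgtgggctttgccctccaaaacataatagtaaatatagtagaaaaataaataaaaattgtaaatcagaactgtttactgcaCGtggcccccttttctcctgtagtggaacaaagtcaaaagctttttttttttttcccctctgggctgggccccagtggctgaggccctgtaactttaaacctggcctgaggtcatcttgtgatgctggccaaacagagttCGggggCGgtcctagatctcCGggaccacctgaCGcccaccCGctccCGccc
Avil promoter, chr10:127000459-127000758, plus strand: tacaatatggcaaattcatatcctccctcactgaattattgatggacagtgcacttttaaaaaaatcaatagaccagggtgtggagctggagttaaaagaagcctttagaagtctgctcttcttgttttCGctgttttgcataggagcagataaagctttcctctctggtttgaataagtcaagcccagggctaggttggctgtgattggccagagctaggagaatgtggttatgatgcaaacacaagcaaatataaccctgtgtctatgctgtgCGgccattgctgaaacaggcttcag
Mpp4 promoter, chr1:59161587-59161886, minus strand: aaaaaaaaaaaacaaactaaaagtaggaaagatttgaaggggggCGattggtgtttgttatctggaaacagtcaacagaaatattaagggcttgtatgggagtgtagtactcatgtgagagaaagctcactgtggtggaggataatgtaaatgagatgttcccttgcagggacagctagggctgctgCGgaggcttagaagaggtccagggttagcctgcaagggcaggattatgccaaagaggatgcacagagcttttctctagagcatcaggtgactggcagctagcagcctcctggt
Mpp4 promoter, chr1:59163340-59163639, minus strand: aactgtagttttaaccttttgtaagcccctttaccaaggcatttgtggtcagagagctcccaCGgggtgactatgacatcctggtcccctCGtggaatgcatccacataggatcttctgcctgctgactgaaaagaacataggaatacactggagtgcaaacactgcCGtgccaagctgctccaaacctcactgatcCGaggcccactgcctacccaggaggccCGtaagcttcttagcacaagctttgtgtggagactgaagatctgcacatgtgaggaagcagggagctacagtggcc
The Cbx7 window held 33 CG dinucleotides, a number reached by 8.56% of the 32851 promoters in the table. The Pdpn window held 7, which is the median of all promoters. The Avil window held 2, and the 2 windows listed for Mpp4 held 2 and 5, all under the median. The letters TATAAA were found on neither strand of these windows. Among all promoters 13.6% hold them, and none in so few windows is near that share. An entry existed for 117 of the 160 genes chosen for naming.

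Library totals on day 14 ranged from 20968379 to 26810473 counts, so 3 counts, taken as the floor of detection, corresponded to at most 0.143 CPM. CPM is a count relative to its library total, here scaled with TMM factors, and gaps are differences of log2(CPM + 1). The 2-fold margin is on that scale, so a gene under 1 CPM in a line of its higher genotype could not pass it. Of 27886 genes with any count in these libraries, 15645 passed edgeR's filter on low counts. A gene could pass through one genotype alone, so that genes near 0 in the other were kept.

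The wild type lines differed from each other about as much as from the knockout lines. The 2 wild type lines differed at least 2-fold in 34.5% of the genes tested, and the 2 knockout lines in 17.8%. Across genotypes, the share was 21.7% for WT#1-4 and Nox4-/-#5-23, 32.9% for WT#1-4 and Nox4-/-#5-8, 37.4% for WT#20D-17 and Nox4-/-#5-23 and 43.6% for WT#20D-17 and Nox4-/-#5-8. WT#1-4 was thus nearer to a knockout line than to the other wild type line by this measure.

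**Figure D1:**
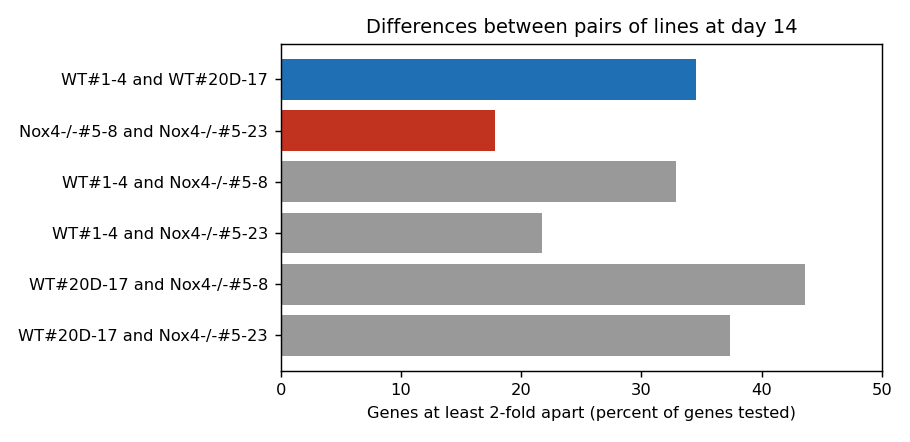
Percent of the 15645 tested genes that lay at least 2-fold apart on the CPM + 1 scale, for each pair of lines on day 14. Blue is the pair of wild type lines (34.5%), red the pair of knockout lines (17.8%), and grey bars are pairs across genotypes (21.7% to 43.6%).

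The labelled tissue was checked against markers of differentiation and of pluripotency. Lama1, a laminin chain of basement membranes, was at 0.397, 8610, 0 and 0.0365 CPM in WT#1-4, WT#20D-17, Nox4-/-#5-8 and Nox4-/-#5-23. Sox17, an endoderm transcription factor, was at 0.0496, 126, 0 and 0 CPM in the same order. Ttr, a product of visceral endoderm and liver, was at 0.297, 95, 0 and 0 CPM. These markers were thus high in WT#20D-17 and at or near 0 in the other lines. Other members of the same lists were present in every line, such as Lamb1 at 482, 8401, 234 and 538 CPM. Ahsg went the other way, at 0.694, 0.262, 41.9 and 10.5 CPM. Of neural genes, Map2 was at 443, 2.15, 28 and 17.8 CPM and Sox1 at 66.1, 0.21, 60.1 and 51.8 CPM. Both were lowest in WT#20D-17, while Nes was highest in it, at 11.9, 28.7, 12.3 and 17.4 CPM. Pou5f1, which encodes Oct4, was at 1278, 21.3, 1873 and 3677 CPM, and counts from the gene and from a viral copy cannot be told apart. Nanog, a marker of the endogenous pluripotent state, was at 0.198, 8.4, 0.603 and 0.693 CPM. Pou5f1 therefore stayed high on day 14 in every line but WT#20D-17, while Nanog was low in all 4 and highest in WT#20D-17. Other pluripotency genes lay on both sides. In the same order, Zfp42 was at 0, 11.9, 0 and 0 CPM and Dppa5a at 0.0496, 24.4, 0 and 0.146 CPM. Sox2, also a viral factor, was at 1.04, 6.98, 97.4 and 137 CPM and Fgf4 at 58.4, 2.26, 114 and 168 CPM. The part of such line states in the genotype differences below was not tested, and fewer cells of a type and less RNA per cell cannot be told apart in bulk cultures.

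The targeted gene was at the floor in both knockout lines. Nox4 (ENSMUSG00000030562, chr7:87246096-87398710 of GRCm38) had 3 counts in WT#1-4, 56 in WT#20D-17 and 0 in each Nox4-/- line. WT#1-4 on day 14 was therefore also at the floor, and the gene did not pass the filter.

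By edgeR's quasi-likelihood test on these libraries, 0 of 15645 genes were called at an FDR under 0.05 (0%). The unadjusted p was under 0.05 for 1598, with the knockout below wild type in 991 and above it in 607. The smallest FDR was 0.343, shared by 5 genes, Cbx7, Mmp2, Cdcp1, Repin1 and Pdpn, all of them lower. Other tests on the same libraries made calls. The edgeR exact test called 317 genes lower (2.03%) and 106 higher (0.678%) in the knockout. DESeq2 called 608 lower (3.89%) and 187 higher (1.2%). A quasi-likelihood fit to all 20 libraries, in which each genotype and day was a group, called 63 lower (0.403%) and 90 higher (0.575%) for day 14. It had no term for the line, so repeated days of the same clone counted as independent and its calls may be too many. All 153 genes of the fit to all 20 libraries, 422 of the 423 genes of the exact test and 747 of the 795 of DESeq2 were separated. Calls and separation rest on the same day 14 values, so this overlap is not an independent check. The number called also turned on single lines. Without WT#1-4, 2306 genes were called lower and 1481 higher, and without WT#20D-17 the numbers were 377 and 237, with the lone wild type library assumed to vary like the knockout pair. Leaving out either knockout line in turn gave 0 calls.

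Both wild type values lay above both knockout values for 3194 genes (20.4% of those tested) and below them for 4067 (26%). For 497 genes (3.18%) the knockout lines lay lower by a gap of at least 2-fold, and for 539 (3.45%) they lay higher by such a gap. A gap of at least 5 log2 units was found for 5 genes lower in the knockout, which were H19, Cbx7, Pdpn, Repin1 and Mmp2, and for 1 higher, Avil. Just inside the 2-fold margin lay Nemp2, at 38.3 and 37.9 CPM in wild type and 18.4 and 16.1 CPM in the knockout. Just outside it lay Bbx, at 171 and 174 CPM against 55 and 85.1 CPM. With WT#20D-17 left out, the 2-fold counts became 1112 lower and 1061 higher. With WT#1-4 left out they became 2166 and 2300, since fewer values are easier to separate. They became 784 and 961 without Nox4-/-#5-8, and 1259 and 1502 without Nox4-/-#5-23. With upper quartile scaling the split was 605 lower and 428 higher. Of the 1036 genes with a gap of at least 2-fold, 919 were protein-coding.

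Among protein-coding genes, the widest gap on the lower side was that of Cbx7 (ENSMUSG00000053411, chr15:79915807-79971119), which encodes a chromobox protein of Polycomb repressive complex 1. Its level was 127 CPM in WT#1-4, 83 in WT#20D-17, 0.417 in Nox4-/-#5-8 and 0.292 in Nox4-/-#5-23. The 2 wild type lines were close to each other and the knockout lines held 9 and 8 counts, which gives a log2 fold change of -8.19 ± 0.69 (SE, n = 2 lines a genotype, quasi-likelihood FDR of 0.343). Here and below the SE was derived from the test's F statistic. Pdpn (chr4:143267431-143299564), which encodes the membrane glycoprotein podoplanin, was at 48.2 and 181 CPM in wild type and at 0.139 and 0.146 CPM in the knockout. Its knockout libraries held 3 and 4 counts, and the log2 fold change was -9.60 ± 1.05 (SE). Repin1, a zinc finger gene on chromosome 6, was at 75.5 and 40.5 CPM in wild type and had 0 counts in both knockout libraries. It was thus at least 955-fold lower against a floor of 3 counts over the knockout group.

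Mmp2 (chr8:92827291-92853420), a gelatinase that cuts basement membrane collagen, was at 183 and 113 CPM in wild type and 1.81 and 2.22 CPM in the knockout. Its log2 fold change was -6.19 ± 0.62 (SE). Cdcp1, a transmembrane protein phosphorylated by Src kinases, was at 59.1 and 37.2 CPM against 0.232 and 0.365 CPM. For both genes the values of the wild type lines differed by less than 2-fold and stood far above the knockout. Rassf4, a Ras association domain gene, was at 57 and 55.5 CPM against 1.62 and 2.22 CPM. Rgl3, which encodes a Ral guanine nucleotide exchange factor, was at 25.2 and 19.2 CPM against 0 and 0.0365 CPM. The knockout libraries of Rgl3 held 1 count in all, and the ratio was 1090 with a 95% counting interval from 195 to 43119. Armcx2, an armadillo repeat gene of the X chromosome, was at 39.6 and 33.7 CPM against 1.16 and 0.182 CPM.

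The remaining genes of the 12 on this side were uneven between the wild type lines. Col1a1, a chain of type I collagen, was at 33 CPM in WT#1-4 and 951 CPM in WT#20D-17, against 0.325 and 0.255 CPM in the knockout. Col3a1, the chain of type III collagen, was at 20.6 and 1002 CPM against 0.139 and 0.109 CPM. Igf2 (chr7:142650766-142666816), a growth factor of the embryo, was at 51.8 and 3592 CPM against 1.48 and 1.31 CPM. In these 3 genes WT#20D-17 was the highest line, and the gap was set by WT#1-4. The log2 fold change of Igf2 was -10.34 ± 2.30 (SE, FDR of 0.416). Cldn4, a claudin of tight junctions, was at 23.2 and 102 CPM against 0.464 and 0.292 CPM. All 12 were called by the exact test and by DESeq2 and 7 by the fit to all 20 libraries, while their quasi-likelihood FDR lay between 0.343 and 0.416.

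**Figure D2:**
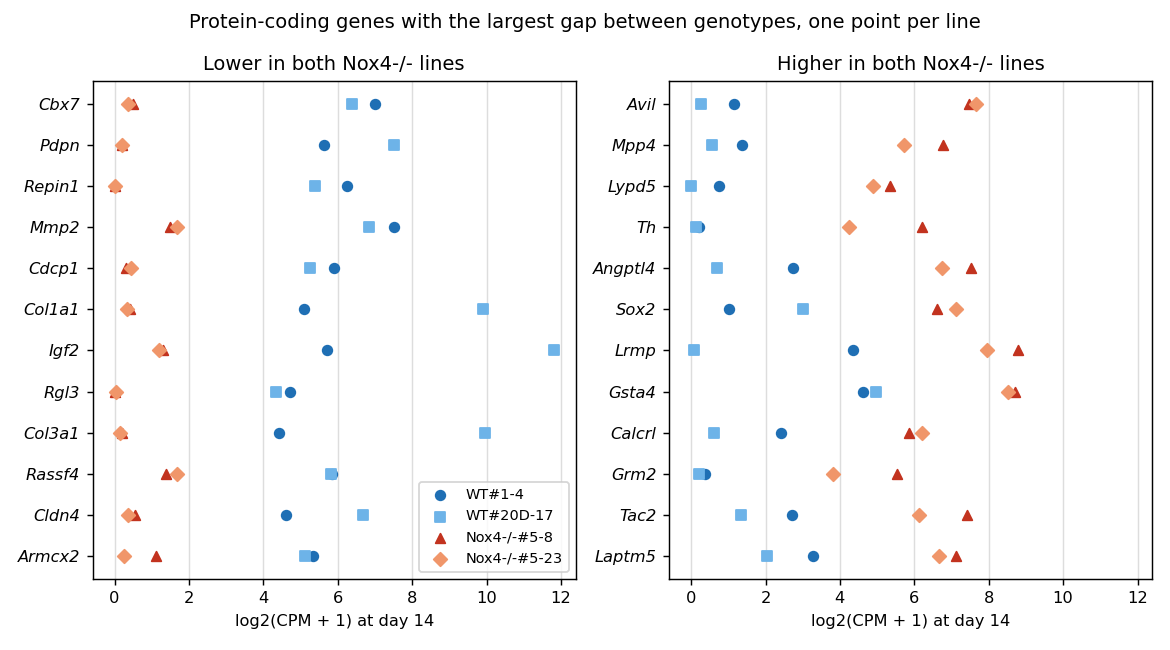
log2(CPM + 1) on day 14 for the 12 protein-coding genes with the widest gap on each side, 1 point per line (blue wild type, red knockout). The left panel runs from Cbx7 with a gap of 5.89 to Armcx2 with 4.01, the right from Avil with 6.30 to Laptm5 with 3.39, and no blue and red points overlap within a gene.

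The widest gap on the higher side was that of Avil (ENSMUSG00000025432, chr10:127000709-127020994), which encodes advillin, an actin-binding protein known from sensory neurons. Its level was 1.24 CPM in WT#1-4, 0.21 in WT#20D-17, 175 in Nox4-/-#5-8 and 201 in Nox4-/-#5-23. Both knockout lines were close to each other, and the log2 fold change was 8.00 ± 1.04 (SE, FDR of 0.416). Sox2 (chr3:34650405-34652461), a pluripotency and neural transcription factor that was also among the viral factors, was at 1.04 and 6.98 CPM in wild type and 97.4 and 137 CPM in the knockout. Its log2 fold change was 4.87 ± 1.02 (SE), and counts of the gene and of the vector cannot be told apart. Gsta4 (chr9:78182774-78209349), a glutathione transferase that clears lipid peroxidation products, was at 23.5 and 30.5 CPM against 413 and 365 CPM. Within each genotype its values differed by less than 2-fold, and its log2 fold change was 3.85 ± 0.54 (SE).

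Further genes on this side act in neurons. Th, the rate-limiting enzyme of catecholamine synthesis, was at 0.149 and 0.105 CPM in wild type and 73.5 and 18 CPM in the knockout. Grm2, a metabotropic glutamate receptor, was at 0.297 and 0.157 CPM against 45.3 and 13 CPM. Tac2, the precursor of neurokinin B, was at 5.5 and 1.52 CPM against 170 and 68.2 CPM. In each of these genes Nox4-/-#5-8 was the higher of the knockout lines. Mpp4, a scaffold protein of photoreceptor synapses, was at 1.59 and 0.472 CPM against 109 and 51.7 CPM. Calcrl, the receptor for CGRP and adrenomedullin, was at 4.36 and 0.525 CPM against 57 and 72.7 CPM. Only Calcrl of these 5 was higher in Nox4-/-#5-23 than in Nox4-/-#5-8.

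Angptl4, a secreted inhibitor of lipoprotein lipase, was at 5.65 and 0.63 CPM in wild type and 182 and 107 CPM in the knockout. Laptm5, a lysosomal protein known from blood cells, was at 8.73 and 3.15 CPM against 137 and 101 CPM, although Ptprc, which marks leukocytes, was at or under 0.472 CPM in every line. Lypd5 was at 0.694 and 0 CPM against 39.9 and 28.4 CPM. Lrmp was at 19.3 and 0.0525 CPM against 437 and 248 CPM, and its unadjusted p of 0.0447 in the quasi-likelihood test was the largest of the 12. The wild type lines of Lrmp differed by more than its gap. Of the 12 genes, 11 were called by the exact test, 12 by DESeq2 and 2, Gsta4 and Laptm5, by the fit to all 20 libraries.

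Gene lists are described next by their separated members, beside the 3.18% lower and 3.45% higher found among all genes at the 2-fold margin. At any gap these shares were 20.4% and 26%. The filter asked for about 10 counts in at least 2 libraries. A gene near 0 in both lines of 1 genotype was thus tested only where both lines of the other had counts. Its separation follows from that choice. Genes near 0 outside WT#20D-17, such as Sox17, Ttr and Hnf4a, were not tested, so list shares and medians leave them out. The quasi-likelihood test called 0 members of any list. The median log2 fold change over all genes tested was 0.03. With a line left out more genes are separated, so counts without WT#20D-17 stand beside 7.11% of all genes lower and 6.78% higher, and counts without WT#1-4 beside 13.8% and 14.7%. The lists were drawn up with results of these data known, so their counts are descriptions.

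Imprinted genes are expressed from 1 parental copy, and many of them regulate growth. Of 27 tested, 8 were at least 2-fold lower and 1 was at least 2-fold higher in both knockout lines, and the median log2 fold change was -1.25. H19 (chr7:142575529-142578143), the noncoding neighbour of Igf2, was at 179 and 4216 CPM in wild type and 0.835 and 0.474 CPM in the knockout. Its gap of 6.61 was the widest of all genes tested. Dlk1, a Notch-like membrane protein, was at 13.1 and 748 CPM against 1.11 and 0.656 CPM. Slc38a4, an amino acid transporter, was at 5.7 and 293 CPM against 0 counts in both knockout libraries. In H19, Dlk1 and Slc38a4 WT#20D-17 was the highest line and WT#1-4 lay between it and the knockout. The other members at least 2-fold lower were Igf2, Igf2r, Mest, Nnat and Peg10. Peg12, at 2.48 and 1.84 CPM against 11 and 9.26 CPM, was the member at least 2-fold higher. Grb10, at 1998, 385, 1097 and 2351 CPM, was not separated. Without WT#20D-17 the median of the list was -0.21, with 9 members lower and 3 higher by at least 2-fold (33.3% and 11.1%, against 7.11% and 6.78% of all genes).

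The insulin-like growth factor (IGF) system consists of ligands, receptors and binding proteins, the last of which hold the ligands in the extracellular space. Of 16 tested, 7 were at least 2-fold lower and 1 was higher. The ligand Igf1 was at 3.02 and 2.89 CPM in wild type and 0 and 0.0729 CPM in the knockout. The receptor gene Igf1r was not separated, at 191, 57.9, 88.3 and 222 CPM, while Igf2r, which clears IGF2, was at 232 and 922 CPM against 47.7 and 112 CPM. The adaptor Irs2 was at 76.8 and 126 CPM against 15.2 and 23.5 CPM. Among binding proteins Igfbp4, Igfbp5 and Igfbp7 were at least 2-fold lower, and Igfbp6 was lower by less. Igfbp5 was at 15.4 and 137 CPM against 0.649 and 2.37 CPM. Igfbp3 was the exception, at 516 and 40.8 CPM in wild type and 1290 and 2149 CPM in the knockout.

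Interstitial matrix and fibroblast genes included 8 of 19 members that were at least 2-fold lower and none higher, with a median log2 fold change of -3.19 and of -2.58 without WT#20D-17. Besides Col1a1 and Col3a1 these were Col1a2, Col5a1, Col5a2, Postn, Pdgfra and Lox. Lox, which cross-links collagen, was at 5.85 and 30.5 CPM against 0.0927 and 0.0729 CPM. Fn1, which encodes fibronectin, was not separated, at 3722, 2358, 1179 and 3105 CPM. The summed level of the list was 3982 and 6317 CPM in wild type and 1223 and 3160 CPM in the knockout.

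Genes of the basement membrane and parietal endoderm, the cell layer that lays down a thick laminin and collagen IV sheet in the early embryo, were high in 1 line. The summed level of the list was 4352, 89115, 1576 and 2834 CPM in WT#1-4, WT#20D-17, Nox4-/-#5-8 and Nox4-/-#5-23. Col4a1, a collagen IV chain, was at 27.3, 26175, 19.4 and 5.18 CPM in that order. In both values WT#1-4 lay above the knockout lines but closer to them than to WT#20D-17. The 3 of 11 members that were 2-fold lower were Col4a2, Sparc and Pth1r, and the median of -4.11 was -0.86 without WT#20D-17. Without that line 3 members were at least 2-fold lower and 1 higher (27.3% and 9.09%, against 7.11% and 6.78% of all genes). Visceral endoderm and liver genes were likewise high in 1 line, with a summed level of 144, 3554, 87.9 and 100 CPM in the same order. Afp, the alpha-fetoprotein of the yolk sac and fetal liver, was at 1.24 and 667 CPM against 0 and 0.0365 CPM. Apob and Rbp4 were the other members of 13 tested that lay at least 2-fold lower. At any gap 7 were separated and lower, beside 20.4% of all genes. Of the 24 listed, Sox17, Ttr, Hnf4a and others near 0 outside WT#20D-17 did not pass the filter. Afp and Apob passed it only through the wild type lines. Ahsg was at 0.694 and 0.262 CPM against 41.9 and 10.5 CPM, and the median of -7.16 was -0.79 without WT#20D-17. Without that line 3 members of this list were at least 2-fold lower and 1 higher (23.1% and 7.69%).

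Epithelial cells form sheets held together by junctions. Of 15 tested, 8 were at least 2-fold lower and 0 higher, and the median was -3.02. Without WT#20D-17 the counts were also 8 and 0 (53.3% lower, against 7.11% of all genes), and the median was -1.77. Cdh1, which encodes E-cadherin, was at 179 and 212 CPM in wild type and 76 and 62 CPM in the knockout. Krt18, a keratin of simple epithelia, was at 20.8 and 982 CPM against 0.603 and 0.109 CPM. Cldn3, a tight junction claudin, was at 35 and 24.9 CPM against 1.07 and 0.474 CPM. Esrp1, a splicing regulator of epithelial cells, was at 84.6 and 94.6 CPM against 9.46 and 12.6 CPM. For Cdh1, Cldn3 and Esrp1 the wild type lines differed by less than 2-fold. Krt7, Cldn4, Cldn6 and Cldn7 were the other members at least 2-fold lower, while Epcam, at 105, 58.1, 74.1 and 36 CPM, and Krt19 were not separated.

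Smooth muscle genes included 4 of 13 members that were at least 2-fold lower, namely Acta2, Tagln, Smtn and Tpm2, and 1 higher, Mylk. Acta2, smooth muscle actin, was at 37.5 and 410 CPM in wild type and 3.57 and 1.79 CPM in the knockout. Tagln, which encodes the actin-binding protein transgelin, was at 32.7 and 165 CPM against 3.76 and 1.09 CPM. Myh11, the myosin of mature smooth muscle, was at or under 0.694 CPM in every line. In the heart muscle list Tnnt2 and Actc1 were the 2 of 14 members at least 2-fold lower, and Myh6 was at 0.694 and 43.8 CPM against 0 counts in the knockout. Most of the level again came from WT#20D-17, and the median of -2.69 was -0.34 without it.

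The germ layer genes that the study had measured by quantitative PCR were mixed. Of 21 listed, 13 passed the filter, 3 of them (Afp, Klf5 and Pdgfra) were at least 2-fold lower, and Hand1 was separated by less. Gata4, an endoderm and heart transcription factor, was at 1.04, 643, 1.81 and 1.09 CPM. Nes, an intermediate filament of neural progenitors, was at 11.9, 28.7, 12.3 and 17.4 CPM. Map2, a neuronal microtubule protein, was at 443, 2.15, 28 and 17.8 CPM. None of these 3 was separated, and 1 wild type line stood apart in Gata4 and in Map2. The median of the list was -5.11, and -0.52 without WT#20D-17. Without that line 4 members were at least 2-fold lower and 1 higher (30.8% and 7.69%, against 7.11% and 6.78% of all genes).

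Of 10 neural genes tested, 1 was at least 2-fold higher in the knockout, Tubb3, a neuronal tubulin, at 4.91 and 4.78 CPM against 43 and 11.3 CPM. Stmn2, Ncam1 and Syt1 were higher by less on the CPM + 1 scale. Syt1 was at 0.942 and 0.262 CPM against 3.39 and 2.3 CPM. Sox1 was at 66.1, 0.21, 60.1 and 51.8 CPM, low in WT#20D-17 alone. The neural crest list had 0 of 5 members past the 2-fold margin. The neuronal genes named above thus had wide gaps while most of the neural list was not separated by at least 2-fold. Lines could still differ widely in such genes, as in Zic1 at 0, 3.78, 1.3 and 39.4 CPM. The median of the neural list was 1.18, and it was 0.77 without WT#20D-17 and 2.77 without WT#1-4.

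The HoxC cluster encodes transcription factors that mark position along the body axis. Of 8 tested members, 6 were at least 2-fold higher in both knockout lines. Hoxc11, at 0 and 0.892 CPM against 2.69 and 2.59 CPM, was higher by less on the CPM + 1 scale. Hoxc6 (chr15:102998257-103011881) was at 0.149 and 3.41 CPM in wild type and 40.6 and 43.1 CPM in the knockout. Hoxc10 was at 0.0496 and 3.31 CPM against 21.2 and 19.3 CPM. Hoxc4 was at 1.04 and 1.47 CPM against 25.2 and 21.3 CPM, and was the only HoxC gene called by the exact test. The summed cluster was at 1.24 and 16 CPM against 113 and 111 CPM, so that the knockout lines were nearly level. Members of the other Hox clusters showed 0 of 13 past the 2-fold margin. At any gap 7 were separated and higher, beside 26% of all genes.

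Among 13 pluripotency genes, 2 were at least 2-fold higher, Sox2 and Gdf3, and 3 were at least 2-fold lower, Utf1, Lin28a and Tfcp2l1. Lin28a, an RNA-binding protein of pluripotent and embryonic cells, was at 1.88 and 227 CPM in wild type and had 0 counts in both knockout libraries. Fgf4 and Klf4 lay higher by less than 2-fold, Klf4 at 356 and 180 CPM against 460 and 792 CPM. Klf4 was also among the viral factors. Germ cell genes had 2 of 4 members at least 2-fold lower, Prdm1 and Piwil2, and trophoblast genes 2 of 8, Tpbpa and Peg10.

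Genes of signalling pathways lay on both sides. In the TGF-beta list 4 of 16 were at least 2-fold lower and 1 was at least 2-fold higher. Ccn2, a matrix protein induced by TGF-beta, was at 309 and 2358 CPM in wild type and 26.6 and 41.6 CPM in the knockout. Tgfbi, a matrix protein also induced by TGF-beta, was at 3.97 and 77.1 CPM against 0.696 and 1.31 CPM. The ligand Tgfb1 was at 20.3 and 27.5 CPM against 4.73 and 2.41 CPM (log2 fold change -2.74 ± 0.73, SE, FDR of 0.418). Ltbp1, which tethers latent TGF-beta to the matrix, was at 33.7 and 35.2 CPM against 131 and 200 CPM. The other ligands differed from Tgfb1, since Tgfb2 was higher in the knockout, at 79.2 and 15.2 CPM against 148 and 427 CPM, and Tgfb3 was not separated. The latency proteins Ltbp3 and Ltbp4 were not separated either.

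Of 5 platelet-derived growth factor (PDGF) genes tested, Pdgfra and Pdgfc were at least 2-fold lower, at 11.2 and 297 CPM against 1.53 and 3.97 CPM for Pdgfra. The ligands Pdgfa and Pdgfb had log2 fold changes of 0.44 ± 0.49 and 0.29 ± 0.62 (SE). Among immediate early genes, which respond to growth factors within minutes, 3 of 15 were at least 2-fold lower and 0 higher. At any gap, 7 were separated and lower, beside 20.4% of all genes. Jun was at 50.3 and 66.8 CPM against 8.53 and 7.77 CPM, Atf3 at 20.9 and 77.1 CPM against 2.09 and 1.82 CPM, and Zfp36 was the third. Fos, at 128, 25.3, 77 and 60.6 CPM, was not separated. The 25 tested genes that the study listed under MAPK signalling had 10 members at least 2-fold lower and 1 higher, Cacna1c, a calcium channel subunit. The study chose this list on samples of this series, so the direction is not independent evidence. Without WT#20D-17, 18 were lower (72%, against 7.11% of all genes), and without WT#1-4 12 were (48%, against 13.8%). In the list of FGF ligands and ERK feedback genes Dusp5 was the 1 of 16 at least 2-fold lower. It was at 59.9 and 26.8 CPM against 12.7 and 7.84 CPM. Of 14 Wnt genes 0 passed the margin. At any gap, 5 were separated lower and 1 higher, beside 20.4% and 26% of all genes. The exact test called 3 lower, beside 2.03% of all genes. Wnt4, at 0.545 and 9.08 CPM against 0.0464 and 0 CPM, was under 1 CPM in WT#1-4 and so could not pass.

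The NADPH oxidase list had 5 of 16 members past the filter and 0 past the 2-fold margin. Cyba, the p22phox partner of Nox4, was at 8.28, 27.6, 46.2 and 14.5 CPM and was not separated. Of 24 antioxidant genes tested, 2 were at least 2-fold higher and 1, Gpx3, was at least 2-fold lower. The median was 0.57, which became 0.09 without WT#20D-17 and 1.25 without WT#1-4. Slc7a11, the cystine transporter that feeds glutathione synthesis, was at 1.49 and 2.57 CPM in wild type and 23.5 and 46.4 CPM in the knockout. Prdx1, a peroxiredoxin that reduces hydrogen peroxide, was at 234 and 132 CPM against 779 and 557 CPM. Hmox1, an Nrf2 target, was at 1115, 170, 125 and 274 CPM, high in WT#1-4 alone. At any gap, 8 of the 24 members were separated and higher in the knockout, beside 26% of all genes, and 3 were lower, beside 20.4%. Prdx2, Sod2, Cat, Txn1, Gpx1 and Keap1 were higher by less than 2-fold.

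Several lists held no member past the 2-fold margin, and in lists this small 0 is near the 3.18% and 3.45% of all genes. These were primitive streak (0 of 3), skeletal muscle (0 of 2), primitive blood (0 of 5), replication and mitosis (0 of 16), cell cycle inhibitors and p53 targets (0 of 12) and sex-linked genes (0 of 5). Cartilage and bone had 1 of 4 lower (Spp1), and cholesterol synthesis 1 of 16 lower (Insig1). MHC class I presentation had 1 of 10 higher (Psmb10), endothelium 1 of 7 lower (Cdh5) and 1 higher (Eng), and glycolysis and hypoxia response 2 of 16 higher (Pdk1 and Ankrd37). Macrophage and leukocyte genes had 2 of 4 at least 2-fold lower, Cd68 and Csf1r, and 1 higher, Laptm5. The defining marker Ptprc was at the floor in all lines but WT#20D-17. Cholesterol synthesis depended on the line, since 12 of its 16 members (75%, against 7.11% of all genes) were at least 2-fold lower when WT#20D-17 was left out and 1 (6.25%, against 13.8%) when WT#1-4 was. Hmgcs1, an early enzyme of that pathway, was at 872, 125, 103 and 195 CPM.

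**Figure D3:**
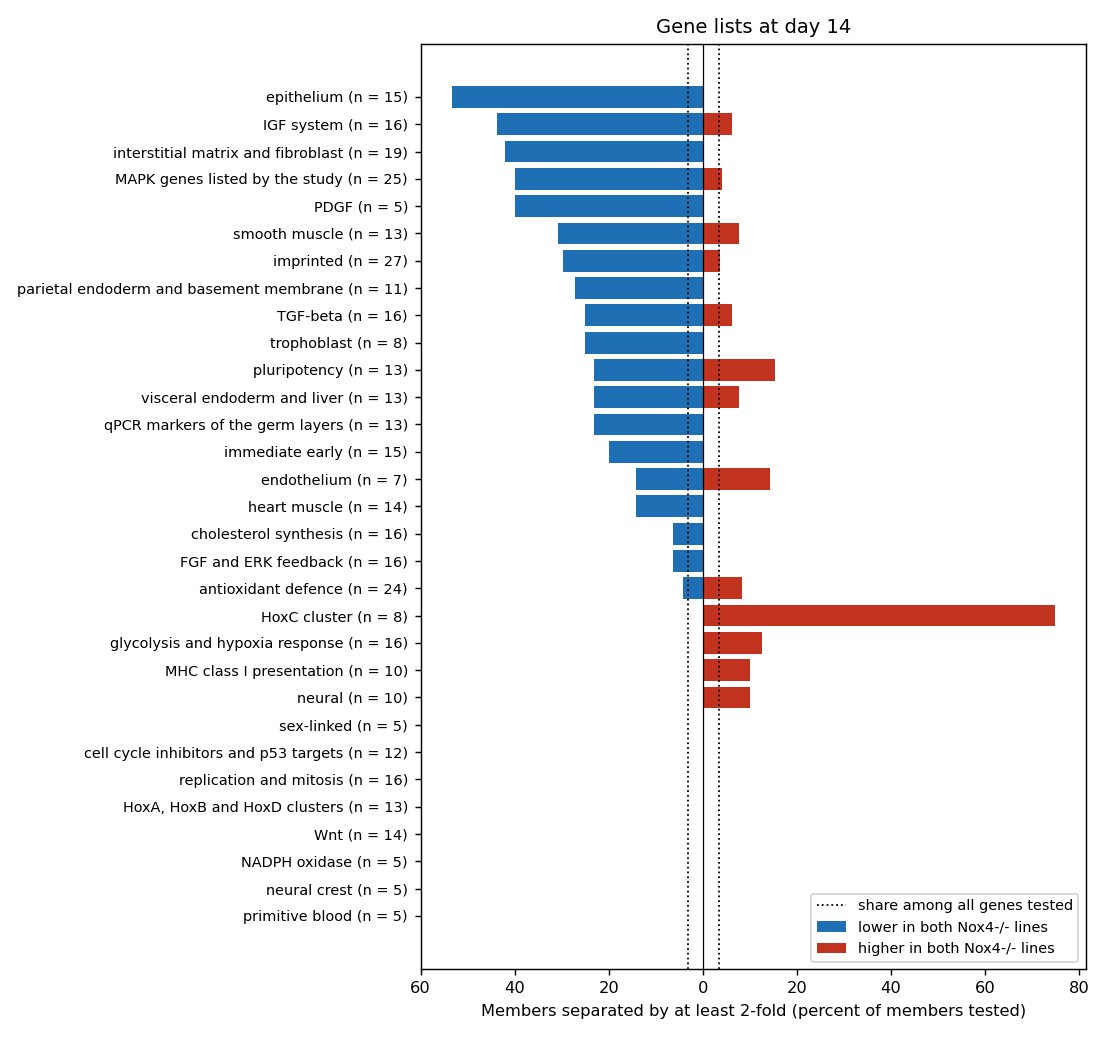
Percent of each list's tested members that were separated by at least 2-fold on day 14, lower (blue, to the left) or higher (red, to the right) in both knockout lines, for the lists with at least 5 members tested. Dotted lines mark the 3.18% and 3.45% of all genes, and the longest bars are epithelium (8 of 15 lower) and the HoxC cluster (6 of 8 higher).

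The share of separated genes differed between chromosomes. On chromosome 5, 60 of 1065 genes (5.63%) were at least 2-fold higher in the knockout and 21 (1.97%) lower. The median log2 difference of chromosome 5 genes from WT#1-4 was 0.54 in Nox4-/-#5-23 and 0.07 in Nox4-/-#5-8, so the shift was seen in 1 knockout line. Chromosome 14 was shifted within wild type, with a median of 0.33 for WT#20D-17 over WT#1-4. On the X chromosome 28 of 481 genes (5.82%) were at least 2-fold lower. The part of chromosome copy number in these values was not tested.

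Most genes separated by at least 2-fold on day 14 were already on the same side, by any gap, on an earlier day. Of the 497 lower genes, 309 were separated on the same side on day 0 and 452 on day 7, and 237 (47.7%) on all 5 days. Of the 539 higher genes, 266 were so on day 0, 433 on day 7 and 180 (33.4%) on all 5 days. Only 23 (4.63%) of the lower and 59 (10.9%) of the higher genes were separated on that side on day 14 alone. The share of all genes separated by any gap on those days is not given here. By at least 2-fold, 88 of the lower genes were also lower on day 0 and 247 on day 7, beside 1.45% and 2.61% of genes. For the higher genes these were 81 and 126, beside 1.19% and 1.07%. The lines are the same on each day, so the days are not independent of each other.

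**Figure D4:**
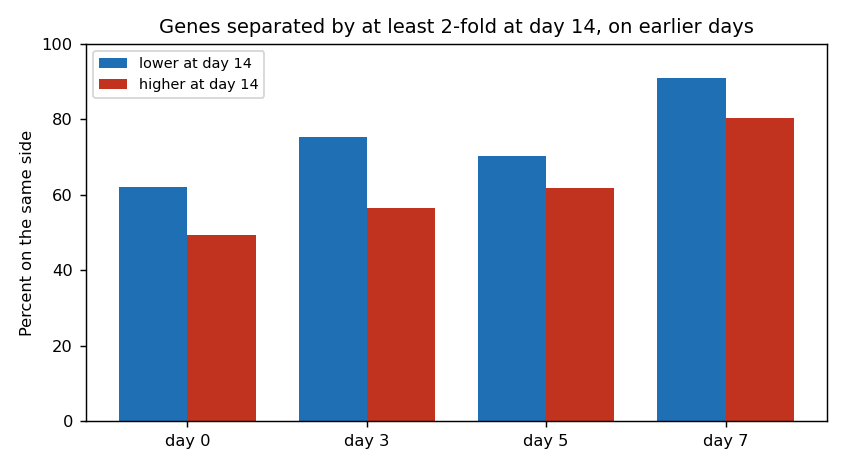
Percent of the 497 genes at least 2-fold lower (blue) and the 539 at least 2-fold higher (red) in both knockout lines on day 14 that were separated on the same side on days 0, 3, 5 and 7. Day 7 has the tallest bars, with 452 and 433 genes.

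The 2-fold margin was passed by more genes on day 14 than before. With genes of a mean of at least 10 counts, 1.45% lay lower and 1.19% higher on day 0. These shares were 2.61% and 1.07% on day 7 and 3.05% and 3.31% on day 14. The higher side thus widened mainly between day 7 and day 14.

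Cbx7 was low in the knockout throughout, at 0.279 and 0.112 CPM on day 0 against 29 and 272 CPM in wild type. Igf2 was at 3.53 and 14.4 CPM in wild type on day 0 and at 1.76 and 2.16 CPM in the knockout, so that most of its gap was formed later. Col1a1 was not separated on day 0, at 22.7 and 2.91 CPM against 3.51 and 7.77 CPM. Avil was higher in the knockout on every day, from 78.8 and 45.1 CPM on day 0. Sox2 was not separated on day 0, at 33.6 and 195 CPM in wild type and 154 and 202 CPM in the knockout, and its level in each wild type line was lower at every later sampling. Gsta4 was likewise not separated on day 0, at 54.5 and 197 CPM against 89.9 and 77.4 CPM. Among the 12 genes with the widest gaps on each side, 10 of the lower and 7 of the higher were on the same side on all 5 days. Among all genes past the 2-fold margin these shares were 47.7% and 33.4%.

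**Figure D5:**
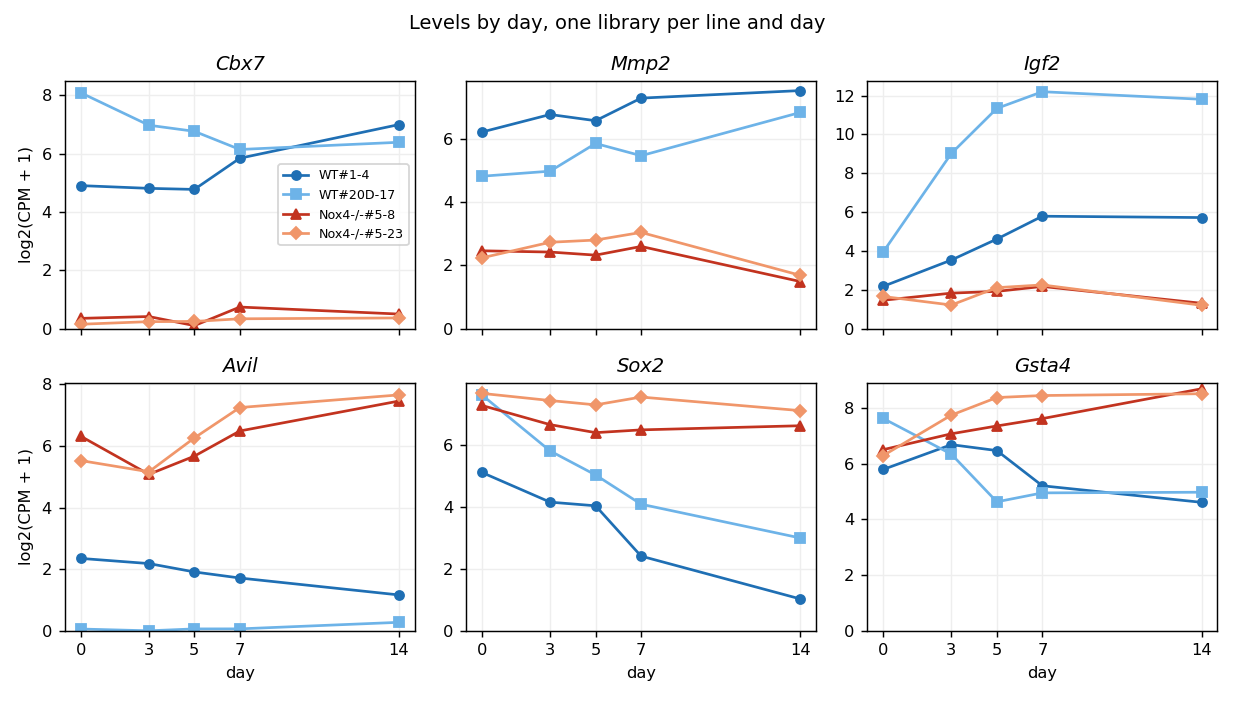
log2(CPM + 1) by day for Cbx7, Mmp2, Igf2, Avil, Sox2 and Gsta4, 1 line of each plot per cell line and 1 library per point. Wild type (blue) and knockout (red) do not overlap from day 0 on for Cbx7, Mmp2, Igf2 and Avil, whereas Sox2 and Gsta4 overlap on day 0.

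Whether the genotype difference itself changed between days was tested as an interaction, with the line as a block. Between day 0 and day 14 the test called 0 of 17561 genes (0%), with an unadjusted p under 0.05 for 993 and a smallest FDR of 0.309. DESeq2 with the same block called 58 genes lower and 82 higher. The genes at the smallest FDR were H19 and Kit on the lower side and Sox2 on the higher, with interaction estimates of -6.39, -5.43 and 4.29 log2 units. Kit, the receptor for stem cell factor, was at 14.1 and 291 CPM in wild type on day 14 and 1.07 and 6.09 CPM in the knockout. Without WT#1-4 the quasi-likelihood test called 1119 genes lower and 1203 higher, and without WT#20D-17 149 and 269. Between day 7 and day 14 it called 3 of 17570 genes (0.0171%), a copy of Nnt listed under a separate identifier and the noncoding Gm26778 and Gm26649. Each overlaps a gene with more counts, and the part of read assignment in their counts was not tested. The next gene was Tph1 (FDR of 0.131), an enzyme of serotonin synthesis, at 0.793 and 1.1 CPM in wild type on day 14 and 12.2 and 77.1 CPM in the knockout.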

How the data were processed

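RNA was sequenced from 20 libraries of 4 iPSC lines on 5 days, and the 4 libraries of day 14 were compared here. Per the labels and the published methods, the authors aligned reads with STAR 2.6.0c to mm10 and deposited expected counts per gene from RSEM 1.3.1, made from stranded mRNA libraries. The strand setting of RSEM is not given in the sources used here. The table held 55573 genes, of which 55480 were matched to GENCODE M21 for symbols and coordinates.

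Expected counts were rounded to whole numbers (9.92% of values had decimals). Groups were taken from the sample labels. The test was edgeR 4.0.16's quasi-likelihood test in R 4.3.3 (limma 3.58.1) with TMM factors from all 20 libraries, edgeR's filter on low counts with a minimum of 10 and Benjamini-Hochberg adjustment at 0.05. The SE of a log2 fold change is its absolute value divided by the square root of the quasi-likelihood F statistic. It is not a standard error of the line means. A gene was separated when both wild type CPM values lay on one side of both knockout values, and gaps used log2(CPM + 1). The genotype by day tests used the line as a block, since the labels give the same line on every day. DESeq2 1.42.0, the edgeR exact test, other scalings, filters and the omission of each library were alternatives. The scripts were tested on simulated data.

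Named genes were Nox4, the 12 protein-coding genes with the widest gap in each direction at a mean of at least 10 counts, the study's growth factors and quantitative PCR markers, up to 4 separated members of each list with the widest gap and those needed to say what a list holds, and the 5 genes with the smallest p in each direction of each genotype by day test. Genes given to show the state of a line, the edge of a margin or a member outside these rules were named after their values were seen. The members and lists were chosen with earlier results of these data known. Each line gave 1 library a day, and no source states that cultures were repeated, so p-values measure the spread between lines. The day 14 fit to all 20 libraries is an exception, since it treated days of the same line as independent. Counting intervals (95%) and floors (3 counts) cover counting error only.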

Additional observations from a re-analysis of the deposited data

Results flagged for a closer look

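The genotype difference changed between day 7 and day 14 by the interaction test for 3 genes, and each of them shares its locus with another gene. Gm26778 (FDR of 0.0282, edgeR's quasi-likelihood test) had 0, 0, 103 and 32 counts on day 7 in WT#1-4, WT#20D-17, Nox4-/-#5-8 and Nox4-/-#5-23, and 71, 68, 0 and 0 on day 14. It lies at chr14:102978220-102982528 on the plus strand, over Kctd12 on the minus strand, whose interaction FDR was 0.989. Gm26649 (FDR of 0.0484) had 520, 25, 256 and 274 counts on day 7 and 0, 0, 156 and 490 on day 14. It lies at chr1:64029463-64032927 on the plus strand, opposite Klf7. The Nnt entry ENSMUSG00000116207 (FDR of 0.00347) had 305, 232, 0 and 0 counts on day 7 and 0, 0, 879 and 0 on day 14. It lies within the other Nnt entry, ENSMUSG00000025453, on the same strand, which had 694, 305, 1088 and 2796 counts on day 14. The part of read assignment between overlapping genes in these counts was not tested, and their fitted fold changes depend on libraries at 0.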

How the results depend on the processing

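The count of genes called on day 14 was 0 in both directions with each of the other scalings and at an FDR under 0.01. It was 1077 lower and 230 higher without a filter on low counts, 317 and 106 by the exact test, 608 and 187 by DESeq2, and 63 and 90 with all 20 libraries. Leaving out each library gave 0 to 2306 lower and 0 to 1481 higher. Separated genes numbered 497 and 539 at a 2-fold margin, and 4693 to 5866 lower and 5609 to 6672 higher with a library left out. At a 2-fold margin, an alternative added after seeing the data, the latter ranges were 784 to 2166 and 961 to 2300. The cause of these shifts was not tested.

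For the change from day 0 to day 14, DESeq2 with the line as block called 58 lower and 82 higher, no filter 52 and 71, and all 20 libraries with the block 11 and 27, with ranges of 0 to 1119 and 0 to 1203 when a line was left out. For day 7 to day 14 these were 66 and 135, 44 and 58, and 0 and 0, with ranges of 0 to 141 and 0 to 136, and DESeq2 size factors left 1 higher. Without the replicate block, that is without pairing days by line, 0 and 0 genes were called for either interval.

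Of 148 named genes with a fit, 9 changed sign under an alternative, all when 1 library was left out, with log2 fold changes from -0.3091 to 0.7052 for Pdgfb (and -0.0149 without WT#1-4), -8.794 to 0.4743 for Gata4, -0.3031 to 0.1722 for Eomes, -1.0723 to 0.6913 for Snai2, -0.9468 to 0.3206 for Nes, -0.538 to 11.8776 for Zic1, -4.2769 to 3.4066 for Map2, -2.6731 to 5.5821 for Pitx1 and -1.177 to 4.724 for Abcd2 (0.2873 without Nox4-/-#5-8). Of 36 lists, 0 medians changed sign with another scaling and 7 when a library was left out.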

Other observations

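A few genes were separated on the day 14 side on that day alone, and 3 of them, picked after their values were seen, are given here. Hjurp, the chaperone that loads the centromeric histone CENP-A, was at 439 and 426 CPM in wild type and 159 and 143 CPM in the knockout. Gadd45b, a stress-induced signalling protein, was at 117 and 105 CPM against 43.7 and 22.6 CPM. On day 0 both of these genes were separated in the opposite direction. Ptpn22, a tyrosine phosphatase best known from lymphocytes, was at 1.54 and 0.0525 CPM against 49.1 and 25.1 CPM.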
